A study of Mus musculus with 6 samples.

Results

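Cholesterol is made, sensed, moved and exported in the liver by a set of enzymes and regulators, and 32 genes of this set, listed by symbol, were read from a table of 56674 gene rows. Each of the 32 symbols stood on 1 row of the table. They comprise 18 enzymes of sterol synthesis, 4 genes of the SREBP2 sensing machinery, 5 genes of the LXR axis and 5 genes of transport and storage. Poly(A) RNA was sequenced from the livers of male C57BL/6 mice reared over 71 weeks at 18 to 22 °C, which received chow containing polypropylene microplastic (PP-MP, 3 samples) or normal chow (control, 3 samples). One label field reads PS-MP throughout, in both groups. The grouping used here rests on the titles and characteristics, which give PP-MP or else normal chow. The labels do not say that the samples were separate animals, so the p-values reflect only how far these samples scatter, which may be technical. The sources used here give no dose, no particle size and no duration of the diet.

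The libraries held 68357478 to 112566641 counts, and the 32 genes took 0.182% to 0.194% of the counts in PP-MP and 0.148% to 0.213% in control. Control 2 stood apart, with 11.3% of its counts on ribosomal RNA genes, against 0.658% to 0.754% in the PP-MP libraries and 1.17% and 2.94% in control 3 and control 1. The summed level of 6 hepatocyte markers was 71270 to 77820 CPM in PP-MP and 64880 to 79400 CPM in control (CPM, read counts scaled to library size with TMM factors, the unit of all levels below), and 0 of the 6 were at 0 in any library.

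Cells make cholesterol from acetyl-CoA, first through the mevalonate pathway to farnesyl diphosphate and then through squalene and lanosterol to the finished sterol. When membranes of the endoplasmic reticulum are low in sterol, the escort protein Scap carries the transcription factor SREBP2 to the Golgi, where it is cut and released to switch on the synthesis genes, and Insig proteins hold Scap back when sterol is plentiful. Oxysterols, which form when cholesterol is in excess, activate the LXR receptors, which turn on export pumps. The liver is a main site of cholesterol synthesis and also disposes of it.

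No member passed the threshold between the diets. All 32 members passed the filter on low counts, and 0 had an adjusted p under 0.05 over the 18284 genes tested (edgeR quasi-likelihood test, Benjamini-Hochberg adjustment, two-sided, n = 3 per group), where 0.0109% of all genes were called. At an unadjusted p under 0.05 there were 4 members, 1 higher in PP-MP, where 8.05% of all genes were so, and 3 lower, where 5.81% of all genes were so. DESeq2 called 3 members at an adjusted p under 0.05, all lower, where it called 1.87% of all genes as lower. PP-MP and control did not overlap for 6 members: 1 was higher in every PP-MP library, against 12.2% of all genes tested, and 5 were lower, against 9.79% of all genes. These counts moved with the scaling: by library totals 9 members were higher in every PP-MP library, against 24.5% of all genes. The 9 were Mvk, Idi1, Sqle, Lss, Hsd17b7, Srebf2, Nr1h2, Abca1 and Npc1, of which only Mvk was so with TMM factors. By library totals 2 members, Pmvk and Nsdhl, were lower, against 2.59% of all genes. Where groups are said below to overlap or not, the levels are those scaled with TMM factors unless library totals are named. The median log2 fold change was −0.12 over the 32 members and −0.17 over the 18 synthesis enzymes, beside 0.03 over all genes tested. When library totals replaced the TMM factors all genes shifted by a median of 0.23 on the log2 scale. The median of the 18 enzymes was then 0.06, beside 0.26 over all genes, so its sign depended on the scaling. Relative to the median of all genes, 12 of the 18 enzymes were lower under either scaling. The 95% interval of the fold change lay within 2-fold for 20 of the 32 members (62.5%), against 46.3% of all genes.

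**Figure D1:**
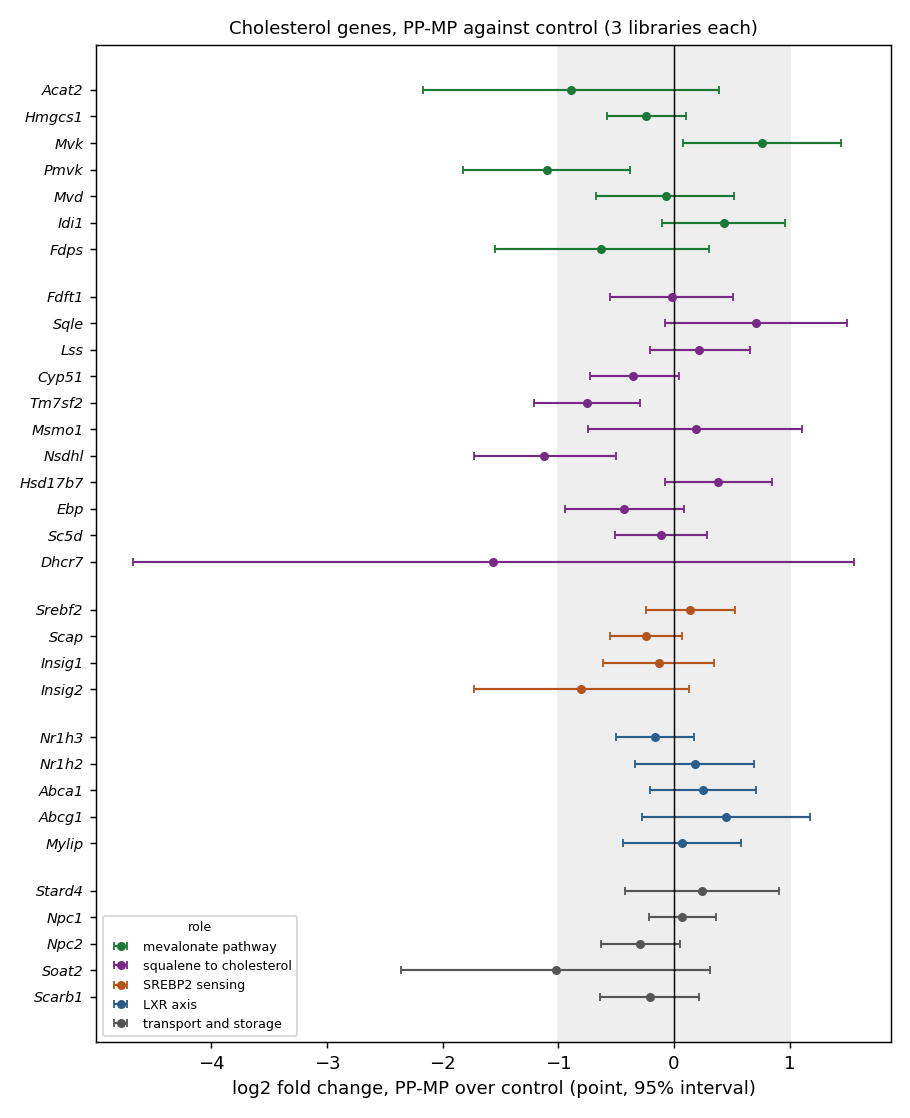
Log2 fold change of PP-MP over control for the 32 genes, grouped by role, as a point with its 95% interval from the edgeR fit (3 libraries per group, log2 axis; grey marks changes within 2-fold). Pmvk, Tm7sf2 and Nsdhl have intervals below 0 and Mvk has an interval above 0, while Dhcr7 has the widest, running over −4.68 to 1.56.

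In the mevalonate pathway, Pmvk was lower and Mvk higher in PP-MP, with no overlap between the diets. Pmvk, the kinase that adds the second phosphate to mevalonate, had 14.02, 13.5 and 12.4 CPM in PP-MP 1, 2 and 3, against 42.5, 18.9 and 24.3 CPM in control 1, 2 and 3. The PP-MP libraries lay close together, control 1 was the highest of the controls and control 2 the nearest to PP-MP. Its log2 fold change was −1.10 (SE 0.30, 95% interval −1.82 to −0.38), 2.14-fold lower in PP-MP, with an edgeR adjusted p of 0.24. Mvk, mevalonate kinase, which acts one step earlier, had 5.08, 4.29 and 7.45 CPM in PP-MP 1, 2 and 3, against 2.91, 2.84 and 4.18 CPM in control 1, 2 and 3. The groups were parted by a small gap, with PP-MP 3 the highest. Its log2 fold change was 0.76 (SE 0.28, 95% interval 0.08 to 1.44; edgeR adjusted p = 0.33), at 171 to 771 counts per library.

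The remaining mevalonate enzymes had smaller or less even differences. Hmgcs1, the synthase that forms HMG-CoA, had 90.7, 94.8 and 92.0 CPM in PP-MP 1, 2 and 3, against 98.4, 103 and 126 CPM in control 1, 2 and 3. The groups did not overlap, but the highest PP-MP library lay just under the lowest control, and the log2 fold change was −0.24 (SE 0.14, 95% interval −0.58 to 0.10; edgeR adjusted p = 0.49). When library totals replaced the TMM factors the log2 fold change of Hmgcs1 was close to 0 (−0.0028) and the groups overlapped. Mvd, which decarboxylates the diphosphate, averaged 4.97 ± 0.0354 CPM in PP-MP and 5.21 ± 1.56 CPM in control (SD, n = 3 each). Idi1, the isomerase of the isoprene units, averaged 31.3 ± 4.67 CPM in PP-MP and 23.2 ± 5.75 CPM in control, and Fdps, which joins them to farnesyl diphosphate, averaged 47.9 ± 2.93 CPM in PP-MP and 74.0 ± 39.9 CPM in control. The groups overlapped for these 3 genes, with log2 fold changes of −0.07, 0.43 and −0.63 (edgeR adjusted p = 0.92, 0.44 and 0.50). Of the 50-base words in the annotated transcripts, 17.7% for Idi1 and 26.2% for Fdps also occur in another gene, so their counts are uncertain.

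Acat2, the cytosolic thiolase that supplies acetoacetyl-CoA, spread widely in both diets and has a close copy. It had 58.2, 74.8 and 24.9 CPM in PP-MP 1, 2 and 3, against 129, 41.3 and 122 CPM in control 1, 2 and 3. PP-MP 3 and control 2 were the lowest of their groups, and the groups overlapped (log2 fold change −0.89, SE 0.54, edgeR adjusted p = 0.49). Its mouse paralog Acat3, chosen with its values in view because it holds 39.1% of the 50-base words of Acat2, had 3.36, 6.05 and 5.73 CPM in PP-MP 1, 2 and 3, against 72.9, 9.26 and 44.5 CPM in control 1, 2 and 3. Acat3 was thus lower in every PP-MP library, with control 2 far below the other controls and near PP-MP, and its log2 fold change was −3.07 (SE 0.71, edgeR adjusted p = 0.21; 0.00011 with DESeq2, 0.03 without control 2, and 0.00011 to 0.48 over all alternatives). A read from shared sequence could have been assigned to either gene. Their summed level was 61.6, 80.8 and 30.6 CPM in PP-MP 1, 2 and 3, against 202, 50.5 and 167 CPM in control 1, 2 and 3, which overlaps through control 2.

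Between squalene and cholesterol, Nsdhl and Tm7sf2 were lower in every PP-MP library, Tm7sf2 with TMM factors but not with library totals. Nsdhl, the dehydrogenase that takes part in removing methyl groups from the sterol ring, had 17.3, 17.6 and 16.0 CPM in PP-MP 1, 2 and 3, against 47.9, 23.6 and 38.7 CPM in control 1, 2 and 3. The PP-MP libraries were nearly alike, and control 2 was again the control nearest to them. The log2 fold change was −1.12 (SE 0.26, 95% interval −1.73 to −0.50), 2.17-fold lower in PP-MP, with the smallest edgeR adjusted p of the 32 members, 0.21. Tm7sf2, a sterol reductase that acts after Cyp51, had 71.5, 94.6 and 96.0 CPM in PP-MP 1, 2 and 3, against 158, 119 and 164 CPM in control 1, 2 and 3. No PP-MP value reached the lowest control, and the log2 fold change was −0.75 (SE 0.19, 95% interval −1.21 to −0.29; edgeR adjusted p = 0.23). Tm7sf2 shares exonic sequence with its neighbour Vps51 (9.87% of its 50-base words), which was at 12.9 to 15.2 CPM in PP-MP and 11.5 to 18.6 CPM in control, while Nsdhl and Pmvk share 0% with another gene.

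These 3 lower enzymes were the members whose call depended on the test. DESeq2 called Nsdhl (adjusted p = 0.0079), Tm7sf2 (0.027) and Pmvk (0.028) as lower, and it called 4.25% of all genes in either direction. Without control 2, edgeR called Nsdhl (log2 fold change −1.34, adjusted p = 0.036), where it called 0.477% of all genes. Over all alternatives the adjusted p ran from 0.0079 to 0.46 for Nsdhl, from 0.027 to 0.48 for Tm7sf2 and from 0.028 to 0.46 for Pmvk. With 1 library left out at a time, the log2 fold changes stayed at −1.34 to −0.86 for Nsdhl, −0.87 to −0.62 for Tm7sf2 and −1.31 to −0.68 for Pmvk.

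**Figure D2:**
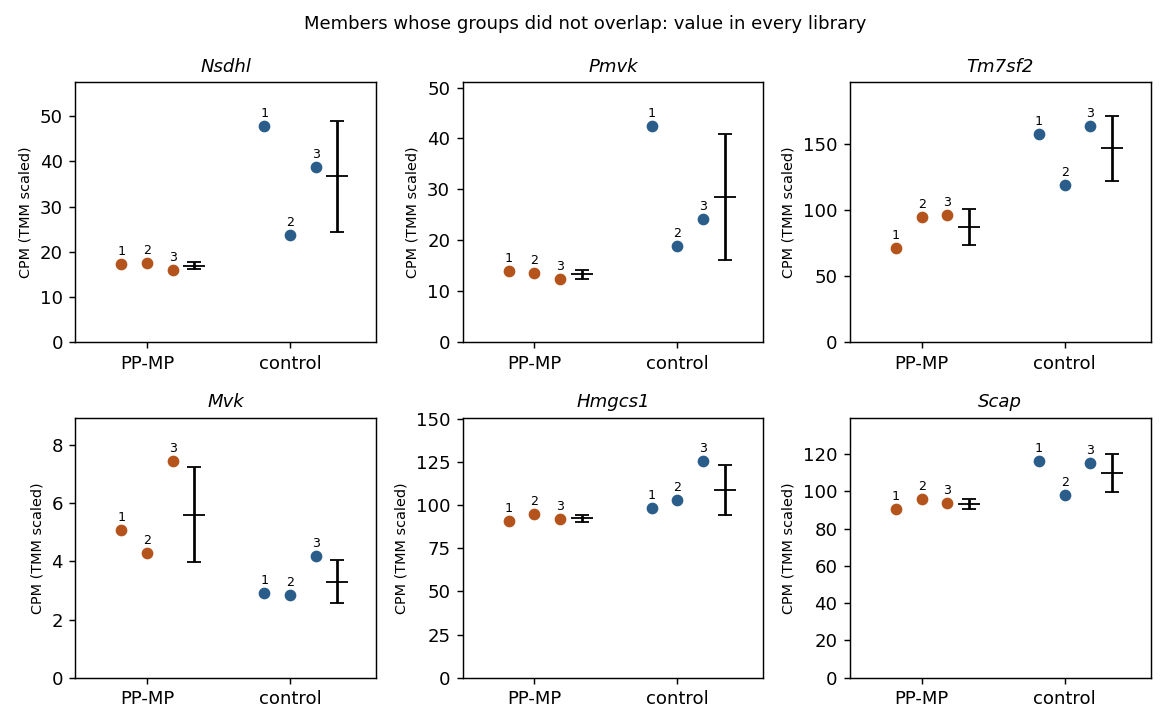
Level in CPM (linear axis from 0) (TMM factors) of the 6 members whose groups did not overlap under that scaling, 1 point per library with its replicate number, and the mean ± SD in black (n = 3 per group). PP-MP lies between 16.0 and 17.6 CPM for Nsdhl and between 12.4 and 14.02 CPM for Pmvk, below a wide spread of controls, while Mvk is the member that is higher in PP-MP.

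The other 9 enzymes of this stretch overlapped between the diets and did not share a direction. Sqle, the squalene epoxidase that controls flux into the sterol branch, had 25.3, 17.9 and 15.6 CPM in PP-MP 1, 2 and 3, against 11.4, 7.498 and 17.0 CPM in control 1, 2 and 3. Its overlap came from control 3 alone, which exceeded PP-MP 3, and the log2 fold change was 0.71 (SE 0.33, 95% interval −0.08 to 1.5; edgeR adjusted p = 0.40). Fdft1, squalene synthase, averaged 62.4 ± 9.37 CPM in PP-MP and 63.3 ± 16.5 CPM in control, and Lss, lanosterol synthase, 19.6 ± 2.49 CPM in PP-MP and 16.8 ± 2.89 CPM in control (SD, n = 3 each). Their log2 fold changes were −0.02, with a sign that turned under other scalings and filters, and 0.22 (edgeR adjusted p = 0.98 and 0.60). Of the 50-base words of Fdft1, 9.38% also occur in another gene, and 774 of its exonic bases overlap Ctsb on the opposite strand. Ctsb was at 392 to 498 CPM in PP-MP and 437 to 638 CPM in control, so the counts of Fdft1 are uncertain. Cyp51, which demethylates lanosterol, averaged 44.2 ± 2.08 CPM in PP-MP and 56.2 ± 9.60 CPM in control, at a log2 fold change of −0.35 ± 0.16 (SE, from edgeR, with adjusted p = 0.40), its lowest control (45.1 CPM, control 2) lying just under the highest PP-MP library (46.3 CPM).

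The enzymes that work beside Nsdhl on the methyl groups had overlapping groups and higher fitted levels in PP-MP, though the sign of Msmo1 turned when control 2 was left out (−0.12). Msmo1, the methylsterol oxidase, averaged 59.9 ± 6.82 CPM in PP-MP and 52.6 ± 28.6 CPM in control, and Hsd17b7, the ketoreductase, 52.1 ± 4.96 CPM in PP-MP and 39.9 ± 9.52 CPM in control, with log2 fold changes of 0.19 and 0.38 (edgeR adjusted p = 0.85 and 0.43). Ebp, the sterol isomerase, averaged 125 ± 19.7 CPM in PP-MP and 168 ± 38.2 CPM in control, and Sc5d, the desaturase that follows it, 172 ± 19.1 CPM in PP-MP and 186 ± 25.6 CPM in control. Their log2 fold changes were −0.43 and −0.11 (edgeR adjusted p = 0.43 and 0.79). Per kilobase of exon, Ebp had the highest level of the 32 members, 54.1 CPM per kb in PP-MP and 72.6 CPM per kb in control, and Abcg1 the lowest, 0.705 CPM per kb in PP-MP and 0.515 CPM per kb in control.

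Dhcr7, the reductase of a last step, varied more over the 6 libraries than any other member. It had 11.2, 5.52 and 0.706 CPM in PP-MP 1, 2 and 3, against 31.9, 0.713 and 18.7 CPM in control 1, 2 and 3. One library of each diet, PP-MP 3 with 73 counts and control 2 with 43 counts, stood far below the rest, and the highest library was 45.3-fold above the lowest. For comparison, the median of this ratio over the members was 1.82, and it was under 2 for 18 of the 32. The log2 fold change of Dhcr7 was −1.56 with an SE of 1.3 (95% interval −4.68 to 1.56; edgeR adjusted p = 0.62). It was −2.46 without PP-MP 1 and −0.72 without control 1. PP-MP 3 and control 2 were also the lowest libraries of their diets for Acat2, Pmvk, Fdps, Sqle, Nsdhl, Srebf2, Npc1, Npc2 and Scarb1.

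**Figure D3:**
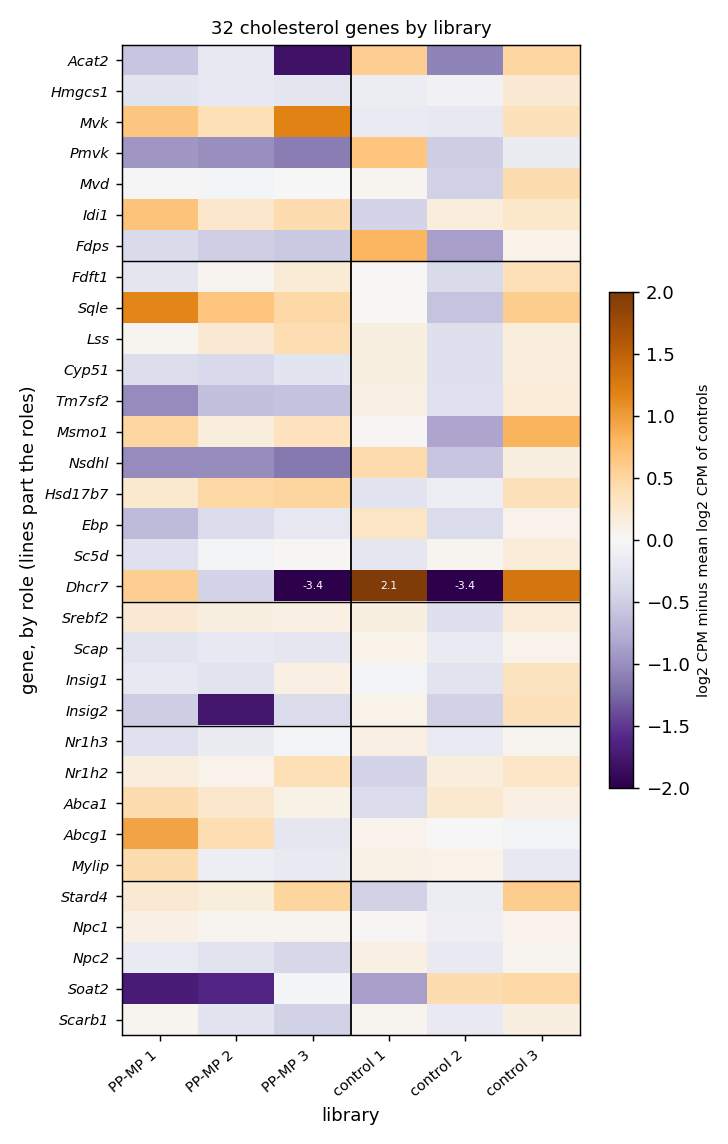
Log2 CPM of each of the 32 genes in each library, minus the mean log2 CPM of the 3 controls (colour, capped at 2 in either direction, with values beyond printed in the cell). Pmvk, Tm7sf2 and Nsdhl are below 0 in every PP-MP library, Dhcr7 is far below 0 in PP-MP 3 and control 2, and control 2 is low for most synthesis enzymes.

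Libraries of the control group differed from each other in the synthesis enzymes more than the PP-MP libraries did. The SD of log2 CPM was wider in control than in PP-MP for 17 of the 18 enzymes and for 26 of the 32 members, against 56.1% of the 17403 genes with counts in every library. Control 2 was the lowest of the 3 controls for 14 of the 18 enzymes, against 35.9% of all genes tested. Relative to the control mean, the mean log2 CPM of the 18 enzymes was −0.11, −0.14 and −0.32 in PP-MP 1, 2 and 3, against 0.23, −0.56 and 0.34 in control 1, 2 and 3, so each PP-MP library lay between control 2 and the other controls. This mean includes Dhcr7, whose very low levels in PP-MP 3 (0.706 CPM) and control 2 (0.713 CPM) pull both libraries down. Control 2 was also the library with 11.3% of its counts on ribosomal RNA genes, and the part of this in the enzyme values was not tested. With control 2 left out, the range between control 1 and control 3 was wider than that of the 3 PP-MP libraries for 9 of the 18 enzymes. A range over 2 libraries and a range over 3 are unlike measures, and the share over all genes was not taken. The count thus does not show whether the wider control spread holds without control 2.

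The promoters of the 4 enzymes with the smallest p-values and of Hmgcs1 are shown because SREBP2 is known to act on synthesis genes together with NF-Y, a factor that binds CCAAT boxes. They run over 250 bases before to 50 bases after the annotated start (RefSeq, GRCm38.p6, the first window listed for each gene, read 5′ to 3′ on the gene's strand). Capitals mark the letters CCAAT or, on the other strand, ATTGG, and in Hmgcs1 also 1 match to TCACNCCAC, a form of the sterol regulatory element.
Nsdhl, chrX:72918271-72918570, plus strand: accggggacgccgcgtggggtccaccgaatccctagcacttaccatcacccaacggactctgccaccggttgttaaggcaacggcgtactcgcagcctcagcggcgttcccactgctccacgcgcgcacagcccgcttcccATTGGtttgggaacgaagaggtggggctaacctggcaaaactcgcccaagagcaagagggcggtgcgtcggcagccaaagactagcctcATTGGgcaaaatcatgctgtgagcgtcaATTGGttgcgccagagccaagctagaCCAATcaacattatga
Tm7sf2, chr19:6067801-6068100, minus strand: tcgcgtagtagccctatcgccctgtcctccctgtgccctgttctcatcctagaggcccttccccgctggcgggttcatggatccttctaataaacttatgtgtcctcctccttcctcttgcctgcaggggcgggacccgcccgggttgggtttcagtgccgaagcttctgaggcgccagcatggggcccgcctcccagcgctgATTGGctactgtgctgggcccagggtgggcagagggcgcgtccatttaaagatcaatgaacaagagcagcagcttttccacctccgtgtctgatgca
Pmvk, chr3:89454291-89454590, plus strand: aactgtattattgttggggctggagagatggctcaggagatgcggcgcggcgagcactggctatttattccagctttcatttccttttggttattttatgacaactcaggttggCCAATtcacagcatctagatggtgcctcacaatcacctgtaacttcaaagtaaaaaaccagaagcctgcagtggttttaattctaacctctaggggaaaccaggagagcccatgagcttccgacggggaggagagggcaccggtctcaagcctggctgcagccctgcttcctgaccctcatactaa
Mvk, chr5:114444019-114444318, plus strand: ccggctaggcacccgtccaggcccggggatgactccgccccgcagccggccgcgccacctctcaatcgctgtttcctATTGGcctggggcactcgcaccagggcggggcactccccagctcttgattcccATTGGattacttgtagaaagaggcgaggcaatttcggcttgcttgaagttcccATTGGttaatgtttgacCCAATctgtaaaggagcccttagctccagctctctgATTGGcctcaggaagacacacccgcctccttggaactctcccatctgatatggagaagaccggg
Hmgcs1, chr13:119690101-119690400, plus strand: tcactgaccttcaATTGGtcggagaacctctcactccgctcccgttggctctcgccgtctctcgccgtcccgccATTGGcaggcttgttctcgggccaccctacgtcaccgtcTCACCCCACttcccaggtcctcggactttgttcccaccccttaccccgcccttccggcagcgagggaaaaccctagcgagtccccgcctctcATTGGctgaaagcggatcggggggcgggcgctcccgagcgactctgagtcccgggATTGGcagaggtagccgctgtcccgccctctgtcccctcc

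CCAAT boxes stood in the windows of the lower enzymes and of the higher one alike. The window of Nsdhl held 4 CCAAT or ATTGG matches, that of Mvk 5, that of Hmgcs1 4 and those of Tm7sf2 and Pmvk 1 each. Of the 32 members 24 had a promoter in the RefSeq table, and 19 of these (79.2%) held the motif in at least 1 window, against 41.1% of the 27025 genes in the table. Among the synthesis enzymes it was 14 of 15, Acat2 being the one without. The sterol element TCACNCCAC, searched on both strands, was found in 1 of the 24 members, Hmgcs1, at −137 from the annotated start, and in 1.44% of all genes. These matches describe letters in a short window, and absence of the motif there says nothing of binding.

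The 4 genes that sense sterol gave 0 calls with edgeR or DESeq2 and 0 at an unadjusted p under 0.05, and 1 of them, Scap, did not overlap between the diets. Srebf2, which encodes SREBP2, had 42.6, 39.6 and 39.3 CPM in PP-MP 1, 2 and 3, against 39.7, 29.4 and 40.9 CPM in control 1, 2 and 3. The values overlapped apart from a low control 2, and the log2 fold change was 0.14 (SE 0.16, 95% interval −0.24 to 0.53; edgeR adjusted p = 0.71). Scap, the escort of SREBP2, had 90.5, 95.9 and 93.6 CPM in PP-MP 1, 2 and 3, against 116, 98.1 and 115 CPM in control 1, 2 and 3. The groups did not overlap, with control 2 just above PP-MP, and the log2 fold change was −0.24 (SE 0.13, 95% interval −0.55 to 0.07; edgeR adjusted p = 0.46). By library totals the groups of Scap overlapped and its log2 fold change was −0.0054.

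The 2 Insig genes, whose proteins retain Scap, had different fitted changes. Insig1, itself a target of SREBP2, had 80.4, 76.1 and 100 CPM in PP-MP 1, 2 and 3, against 88.5, 76.3 and 117 CPM in control 1, 2 and 3. The groups overlapped, with a log2 fold change, positive under library totals, of −0.13 (SE 0.20, 95% interval −0.61 to 0.35; edgeR adjusted p = 0.79). Insig2, which in mouse liver also has a transcript that insulin represses, had 47.7, 19.99 and 52.4 CPM in PP-MP 1, 2 and 3, against 72.3, 49.6 and 87.3 CPM in control 1, 2 and 3. PP-MP 2 was by far the lowest and PP-MP 3 exceeded control 2, so the groups overlapped (log2 fold change −0.80, SE 0.39, 95% interval −1.73 to 0.13; edgeR adjusted p = 0.42).

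Ratios of counts within a library do not depend on how libraries are scaled, and both ratios given here were chosen after the values were seen, so they are a description with no test. The ratio of Mvk to Pmvk, neighbouring kinases of the mevalonate pathway, was 0.363, 0.317 and 0.600 in PP-MP 1, 2 and 3, against 0.0684, 0.1503 and 0.172 in control 1, 2 and 3. Every PP-MP library was above every control, by a mean of 1.76 on the log2 scale or 3.39-fold. That separation was fixed by the choice of genes and adds no support. Mvk alone was higher, and Pmvk alone lower, in every PP-MP library under either scaling. The ratio of Insig1 to Insig2 was 1.69, 3.81 and 1.92 in PP-MP 1, 2 and 3, against 1.22, 1.54 and 1.34 in control 1, 2 and 3. It was also higher in every PP-MP library, by a mean of 0.76 on the log2 scale, with PP-MP 2 well above the other libraries.

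**Figure D4:**
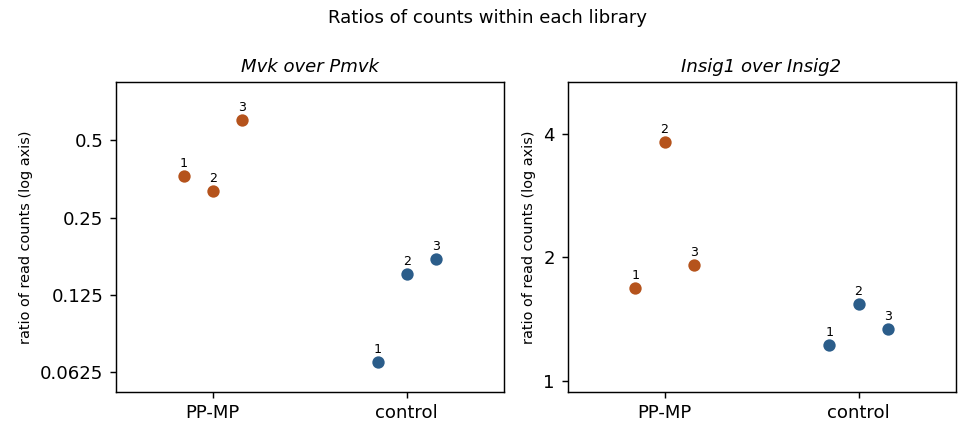
Ratio of read counts of Mvk over Pmvk (left) and of Insig1 over Insig2 (right) in each library, on log axes, with replicate numbers beside the points. All 3 PP-MP libraries lie above all 3 controls in both panels, with 0.317 the lowest PP-MP value and 0.172 the highest control value for Mvk over Pmvk. For Mvk over Pmvk this follows from the separation of each gene alone.

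Of the LXR axis, 0 of 5 genes passed the threshold with edgeR or DESeq2, 0 had an unadjusted p under 0.05, and all 5 overlapped between the diets. Nr1h3, the LXR alpha gene that is abundant in liver, had 70.8, 78.5 and 84.0 CPM in PP-MP 1, 2 and 3, against 94.2, 77.0 and 89.7 CPM in control 1, 2 and 3. Control 2 lay within the PP-MP values, and the log2 fold change was −0.16 (SE 0.14, 95% interval −0.50 to 0.17; edgeR adjusted p = 0.63). Nr1h2, the LXR beta gene, averaged 29.6 ± 3.67 CPM in PP-MP and 26.2 ± 6.56 CPM in control (SD, n = 3 each; log2 fold change 0.18, edgeR adjusted p = 0.73).

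Among LXR targets, Abca1, the pump that loads cholesterol onto lipid-poor apolipoprotein, had 103, 91.0 and 81.4 CPM in PP-MP 1, 2 and 3, against 59.1, 89.3 and 82.5 CPM in control 1, 2 and 3. Only control 1 stood clearly below the rest, and the log2 fold change was 0.25 (SE 0.19, 95% interval −0.21 to 0.71; edgeR adjusted p = 0.58). Abcg1, which exports cholesterol to HDL and is strong in macrophages, had 7.22, 5.02 and 3.20 CPM in PP-MP 1, 2 and 3, against 3.94, 3.73 and 3.60 CPM in control 1, 2 and 3. PP-MP 1 was the highest library and PP-MP 3 the lowest, and the log2 fold change was 0.45 (SE 0.31; edgeR adjusted p = 0.54). Mylip, a ubiquitin ligase for lipoprotein receptors, averaged 9.85 ± 2.44 CPM in PP-MP and 9.40 ± 1.06 CPM in control, PP-MP 1 again being the highest at 12.7 CPM (log2 fold change 0.07, edgeR adjusted p = 0.91).

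The summed macrophage markers had the same order of libraries within PP-MP as Abca1, Abcg1 and Mylip, but the order was not particular to them. Among other members, Fdps, Pmvk, Sqle, Dhcr7, Srebf2, Npc1, Npc2 and Scarb1 (157, 126 and 109.5 CPM in PP-MP 1, 2 and 3) had it too. So did the summed level of 4 cholangiocyte markers (13.4, 4.68 and 3.69 CPM), while those of sinusoidal endothelium and stellate cells did not. The summed level of 8 Kupffer cell and macrophage markers was 527, 309 and 138 CPM in PP-MP 1, 2 and 3, against 125.5, 99.4 and 132 CPM in control 1, 2 and 3. Of the 8, 2 (Marco and Timd4) were higher in every PP-MP library, against 12.2% of all genes, and 0 were at 0 in any library. The summed level of 4 neutrophil markers was 22.9, 4.93 and 3.02 CPM in PP-MP 1, 2 and 3, against 1.18 to 1.75 CPM in control, with 1 of the 4 at 0 in some library. Of these 4, 2 (S100a8 and S100a9) were higher in every PP-MP library, against 12.2% of all genes. The summed level of 4 lymphocyte markers was lower, 4.34, 4.95 and 3.68 CPM in PP-MP 1, 2 and 3, against 7.29, 11.0 and 5.55 CPM in control 1, 2 and 3. Of the 4, 2 were lower in every PP-MP library, against 9.79% of all genes, and 0 were at 0 in any library. The part of these cells in the values of Abca1, Abcg1 and Mylip was not tested, and in whole liver fewer cells of a type and less RNA per cell cannot be told apart.

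Of the transport and storage genes 0 of 5 passed the threshold with edgeR or DESeq2, 0 had an unadjusted p under 0.05, and all 5 overlapped between the diets. Soat2, which esterifies cholesterol in hepatocytes, had 3.88, 4.14 and 12.3 CPM in PP-MP 1, 2 and 3, against 6.89, 17.0 and 17.4 CPM in control 1, 2 and 3. PP-MP 1 and 2 were the lowest libraries, PP-MP 3 lay among the controls, and the log2 fold change was −1.02 (SE 0.56, 95% interval −2.36 to 0.31; edgeR adjusted p = 0.46). It was −1.78 without PP-MP 3 and −0.75 without PP-MP 1. Stard4, a carrier that moves sterol between membranes and is a target of SREBP2, averaged 48.9 ± 6.51 CPM in PP-MP and 41.3 ± 15.8 CPM in control (log2 fold change 0.24, edgeR adjusted p = 0.71).

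The lysosomal pair Npc1 and Npc2, which hand cholesterol from endocytosed lipoproteins to the cytosol, had small fitted differences. Npc1 averaged 107 ± 3.37 CPM in PP-MP and 102 ± 6.33 CPM in control, the narrowest range of the 32 members (highest over lowest library 1.17), with a log2 fold change of 0.07 (standard error 0.12, 95% interval −0.22 to 0.36; edgeR adjusted p = 0.81). Npc2 averaged 61.4 ± 5.30 CPM in PP-MP and 75.0 ± 8.01 CPM in control, with a log2 fold change of −0.29 (SE 0.14, 95% interval −0.63 to 0.05; edgeR adjusted p = 0.42). Scarb1, the HDL receptor that takes up cholesteryl ester, averaged 131 ± 23.9 CPM in PP-MP and 152 ± 16.7 CPM in control (log2 fold change −0.21, SE 0.18, edgeR adjusted p = 0.62).

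A list of 37 other genes that handle cholesterol gave 0 calls among the 35 tested (edgeR and DESeq2 alike), with 1 at an unadjusted p under 0.05, where 13.9% of all genes were so. Their median log2 fold change was −0.13, beside 0.03 over all genes. Groups did not overlap for 2 that were higher in PP-MP, against 12.2% of all genes, and 5 that were lower, against 9.79%. Of these, 2 higher and 3 lower genes belong to the 10 of intracellular sterol transfer and 2 lower ones to the 9 of SREBP processing and sterol-regulated degradation. By library totals the counts were 5 higher, against 24.5% of all genes, and 0 lower, against 2.59%. Lipa, the lysosomal acid lipase that frees cholesterol from its esters, had 180, 232 and 185 CPM in PP-MP 1, 2 and 3, against 343, 256 and 295 CPM in control 1, 2 and 3. No PP-MP library reached the lowest control, and the log2 fold change was −0.58 (SE 0.18, 95% interval −1.01 to −0.15; edgeR adjusted p = 0.28). Erlin2, with 6.46, 15.9 and 13.2 CPM in PP-MP 1, 2 and 3, against 20.7, 24.8 and 16.1 CPM in control 1, 2 and 3, is a scaffold of sterol-regulated degradation in the endoplasmic reticulum, and its log2 fold change was −0.79 (SE 0.35; edgeR adjusted p = 0.37). Mbtps1, the Golgi protease that makes the first cut in SREBP proteins, was at 41.2 to 49.9 CPM in PP-MP and 53.4 to 61.0 CPM in control (log2 fold change −0.30, SE 0.13; edgeR adjusted p = 0.39). On the higher side stood the sterol carriers Gramd1b (log2 fold change 0.51, SE 0.25) and Gramd1a (0.39, SE 0.20; edgeR adjusted p = 0.41 and 0.44).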

How the data were processed

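Liver RNA was prepared with Direct-zol, selected for poly(A) and made into directional NEBNext Ultra II libraries, per the labels' protocols. The deposited values are raw counts per gene, which the authors left unnormalized; bcl2fastq and GRCm39 are named in the submitters' processing notes, and the sources used here give no aligner, counter, strand setting or annotation. The 3 PP-MP and 3 control libraries were compared with edgeR 4.0.16 (R 4.3.3; filterByExpr, TMM, robust two-sided quasi-likelihood test). P-values were adjusted over 18284 genes by the Benjamini-Hochberg method, and 0.05 was the threshold. Alternatives used DESeq2 1.42.0, limma-voom 3.58.1, other scalings, filters and left-out libraries. The procedure was tested on simulated data. CPM values were scaled with TMM factors.

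The 32 members and all gene lists were chosen with earlier results of these data known. Values in every library are given for members whose groups did not overlap and for chosen regulators and enzymes, and the other members are given by mean; of the other cholesterol genes at most 3 per direction were named, by smallest p without overlap. Exon lengths and shared sequence came from GENCODE M21 (GRCm38) and promoters from RefSeq (GRCm38.p6). Libraries differ in depth, and intervals cover the spread between libraries. Libraries of the same number did not deviate together (correlations of −0.0662, −0.0872 and 0.047 over 18284 genes), so numbers were not used as pairs.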

Additional observations from a re-analysis of the deposited data

How the results depend on the processing

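Over all genes tested, 2 were called by edgeR, 1 with library totals, 777 with the DESeq2 test, 1 with limma-voom and 0 to 92 with 1 library left out, the 92 without control 2. Of the 32 members, 0 were called by edgeR, 3 by DESeq2 (Pmvk, Tm7sf2 and Nsdhl) and 0 to 1 with 1 library left out, Nsdhl being called without control 2. The causes were not tested. Same-numbered libraries are not known to be paired; with the replicate number as a block 0 genes and 0 members were called. Members at an unadjusted p under 0.05 numbered 4 (13.9% of all genes), against 8 with library totals (18.7%), 5 with DESeq2 (16.2%), 6 with the block (9.94%) and 9 without control 2 (20.8%). By library totals, added after seeing the data, groups did not overlap for 9 members that were higher and 2 that were lower. For the other cholesterol genes the counts were 5 and 0, and for all genes the shares were 24.5% and 2.59%.

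Fitted directions turned for small changes. With library totals, which shifted all genes by 0.23 on the log2 scale, Mvd gave 0.16, Fdft1 0.20, Sc5d 0.12, Insig1 0.091, Nr1h3 0.066 and Scarb1 0.021. Fdft1 gave 0.013 without a filter, 0.011 with a mean CPM of at least 1, 0.0039 with limma-voom and 0.0015 with the replicate block. Leaving out control 2 and PP-MP 1 together gave −0.22 for Msmo1, −0.03 for Srebf2 and −0.11 for Mylip. With 1 library left out, the log2 fold change ran from −0.26 to 0.19 for Mvd, −0.18 to 0.21 for Fdft1, −0.12 to 0.71 for Msmo1, −0.20 to 0.0031 for Sc5d, −0.26 to 0.078 for Insig1, −5.6e-06 to 0.35 for Nr1h2 and −0.16 to 0.18 for Mylip. The median of the 18 enzymes ran from −0.26 to −0.05 with 1 library left out, and its sign turned, to 0.06, with library totals. The log2 ratio differences ran from 1.35 to 2.02 for Mvk over Pmvk and from 0.40 to 0.99 for Insig1 over Insig2.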

Other observations

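Soat1, the esterifying enzyme that is abundant in macrophages and was singled out after its values were seen, had 4.49, 2.91 and 1.498 CPM in PP-MP 1, 2 and 3, against 1.89, 1.63 and 1.76 CPM in control 1, 2 and 3. Its libraries within PP-MP stood in the same order as the summed macrophage markers. The members Fdps, Pmvk, Sqle, Dhcr7, Srebf2, Npc1, Npc2 and Scarb1 had that order as well. For Soat1 the groups overlapped through PP-MP 3, and the log2 fold change was 0.75 (SE 0.40, 95% interval −0.20 to 1.71; edgeR adjusted p = 0.45). Without PP-MP 1 the log2 fold change of Soat1 was 0.32. Soat2, the hepatocyte enzyme, had the opposite fitted sign and a different order, with PP-MP 1 and 2 the lowest of the 6 libraries. The part of macrophages in the Soat1 values was not tested.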
